A study of Mus musculus with 36 samples.

Results

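Sleep deprivation changed messenger RNA in oligodendrocytes and in the rest of the mouse forebrain, and the comparison described here asked, gene by gene, where those changes differed in size or direction. It used 24 of the 36 arrays of the series, namely the bound and the unbound array of 6 sleep deprived and of 6 sleep animals, matched by state and animal number. Within each animal the unbound value was subtracted from the bound value. The 6 differences of sleep deprived animals were then set against the 6 differences of sleep animals. The result, called the fraction difference below, equals the bound change minus the unbound change on the log2 scale. A positive value means that the gene rose more, or fell less, in bound than in unbound arrays. All genes were eligible, each through the probe set with the highest mean over the 36 arrays, and 13924 of 18193 genes passed the filter on dim probe sets.

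All animals were adult heterozygous Cnp–eGFP-L10a mice of strain C57BL/6. The promoter of Cnp, a gene of myelinating oligodendrocytes, drives ribosomal protein L10a joined to a green fluorescent protein, so that ribosomes of these cells can be pulled out of homogenised forebrain with their messenger RNA (the bound fraction). The unbound fraction is the supernatant, which holds RNA of neurons and other glia and also oligodendrocyte RNA that was not captured. Sleep deprived animals had been awake of their own accord for most of the dark phase and then stayed awake through 4 h of the light phase with new objects to explore. Sleep animals were taken at 3 to 5 pm and had slept for 75% or more of the last 6 to 7 h. A further 6 waking animals, taken at 3 to 5 am when 70% or more of the same window had been spent awake, entered the estimate of the spread and a side-by-side comparison at the end. The clock time at which sleep deprived animals were taken is not given in the labels.

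Enforced wakefulness in rodents is known to raise circulating glucocorticoids, which act through the glucocorticoid receptor on genes such as Fkbp5 in most brain cells, oligodendrocytes included. It is also known to induce chaperones that depend on heat shock factor and, in active neurons, immediate-early genes such as Fos and Arc. Ribosome-bound RNA reports the messages that a cell type is translating, whereas supernatant RNA averages over many cell types. In bulk fractions of this kind, fewer cells of a type and less RNA per cell cannot be told apart.

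The fractions held what the labels say. The 22 measured genes of myelin and mature oligodendrocytes averaged 12.59 log2 in bound arrays of sleep deprived animals and 12.66 in those of sleep animals, against 10.04 and 10.10 in the unbound arrays of the same states. Neuronal markers ran the other way, at 10.74 (sleep deprived) and 10.79 (sleep) in bound arrays against 12.23 and 12.14 in unbound arrays. Astrocyte markers averaged 8.48 and 8.49 in bound arrays and 10.17 and 10.08 in unbound arrays of sleep deprived and sleep animals. Microglial markers averaged 5.22 and 5.38 in bound arrays and 7.67 and 7.72 in unbound arrays. The part of these shifts in the results below was not tested. Since bound arrays also held signal of neuronal genes, a change described here in oligodendrocytes means a change in the bound fraction. The remaining tissue likewise stands for the unbound fraction. Cnp itself, whose promoter drives the tag, had a fraction difference of −0.02 ± 0.05 (SE; adjusted p = 0.884), and its bound values lay between 14.07 and 14.19 log2 in sleep deprived animals and between 14.13 and 14.20 in sleep animals. Array means were 5.91 and 5.92 log2 in the bound arrays and 6.41 and 6.40 in the unbound arrays of sleep deprived and sleep animals. None of the sources used here says whether the groups were normalized together or apart, and such a step cannot be told apart from a difference between states. Sex-linked genes set 3 animals apart from the rest, of which 1 was sleep deprived (animal 11) and 2 were waking. The test of sleep deprived against waking animals at the end was not rerun without them.

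In all, 869 genes, or 6.24% of those tested, had a fraction difference at an adjusted p below 0.05 (limma on within-animal differences, Benjamini-Hochberg over all 13924 genes). The difference was positive for 422 genes (3.03%) and negative for 447 (3.21%). The median over all tested genes was −0.02 log2, and 47.13% of genes had a positive value. Among the 869 called genes the median size was 0.91 log2, and 369 reached 1 log2 or more. In 440 of them the 6 sleep deprived animals did not overlap the 6 sleep animals, while over all tested genes 564 (4.05%) showed no overlap. The share of called genes was 10.3% among the 2785 dimmest genes, between 3.47 and 5.85 log2 on average, and between 3.70% and 5.96% in brighter groups of that size. The p-values measure the spread between these animals.

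Most fraction differences had a called change in the bound fraction without a called change in the unbound fraction. A missing call does not show that the unbound fraction was unchanged. Of the 869 genes, 458 (52.7%) were called for sleep deprivation against sleep in the bound fraction only and 189 (21.7%) in the unbound fraction only. Another 49 (5.64%) changed in opposite directions, and 33 (3.8%) changed the same way in both fractions but by unequal amounts, 27 of them with the positive fraction difference. The remaining 140 (16.1%) were called in neither fraction taken alone. The plot of bound against unbound changes shows these classes as distances from the diagonal.

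**Figure D1:**
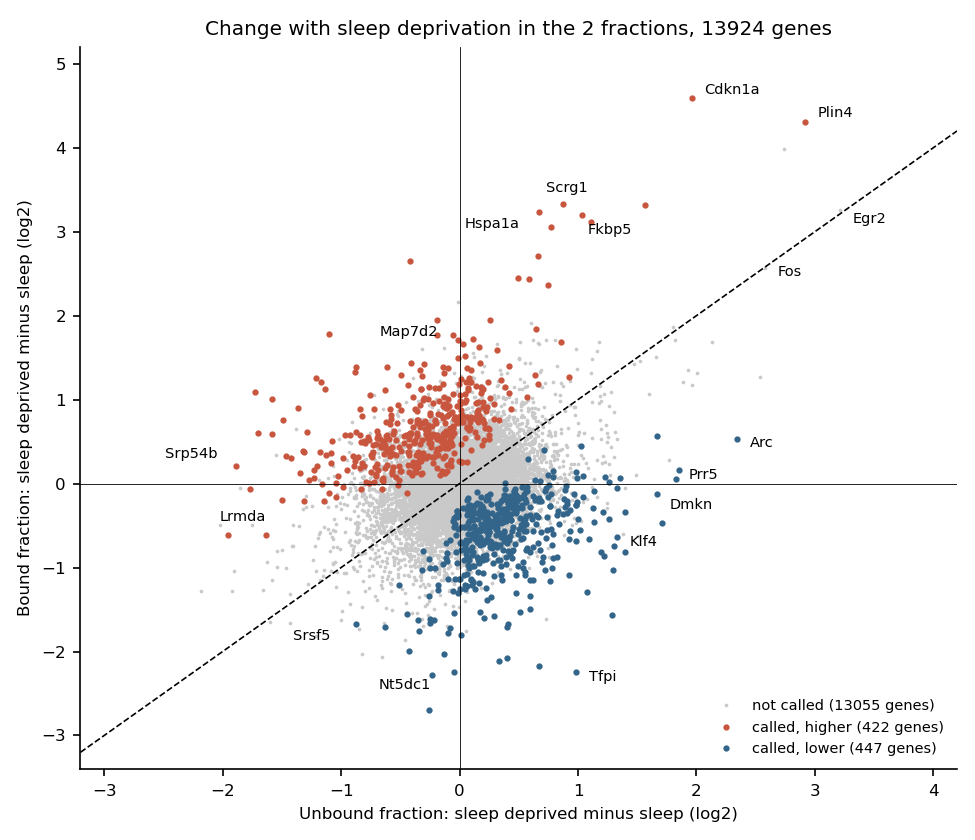
Change of each of 13924 genes with sleep deprivation in the bound fraction (vertical axis, log2, sleep deprived minus sleep) and in the unbound fraction (horizontal axis, same scale). Points above the dashed diagonal have a positive fraction difference. Cdkn1a, Fkbp5 and Hspa1a lie far above it, Arc and Klf4 below it, and Fos and Egr2 almost on it.

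Most genes that respond to glucocorticoids rose in each fraction, and several rose much further in oligodendrocytes. Of 22 measured members of this list, 19 rose in the bound fraction, where 7.53% of all tested genes rose, and 14 rose in the unbound fraction, where 4.65% did. None fell in either fraction. This list and the others below were chosen with earlier results of these data known. An excess over the share of all genes is therefore no independent result. The median change was 1.25 log2 in bound and 0.76 log2 in unbound arrays. The fraction difference was positive and called for 9 members and negative and called for 1, against 3.03% and 3.21% of all tested genes. Its median was 0.61 log2 over the list against −0.02 over all genes.

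Fkbp5, a co-chaperone that binds the glucocorticoid receptor, had bound values of 8.91 to 10.55 log2 (median 10.29) in sleep deprived animals, against 6.09 to 7.26 (median 6.95) in sleep animals. Its unbound values ran from 8.69 to 9.84 (median 9.60) in sleep deprived animals and from 7.82 to 8.93 (median 8.43) in sleep animals. In all 6 sleep deprived animals the bound value exceeded the unbound value, and in all 6 sleep animals it was below it. Fkbp5 thus changed 9.16-fold in oligodendrocytes and 2.04-fold in the remaining tissue, a fraction difference of 2.16 ± 0.30 (SE; limma adjusted p = 0.000227).

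Cdkn1a, which encodes the cyclin-dependent kinase inhibitor p21, had the largest bound change of the list. Its bound values were 9.56 to 13.52 log2 (median 12.52) in sleep deprived animals and 7.18 to 7.82 (median 7.53) in sleep animals. The unbound values were 10.24 to 11.00 (median 10.62) in sleep deprived animals and 8.50 to 9.10 (median 8.61) in sleep animals. Both fractions separated the states completely. The fraction difference was 2.63 ± 0.45 (SE; limma adjusted p = 0.00154), although sleep deprived animal 7, at −0.98, fell inside the sleep range of −1.93 to −0.78.

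Zbtb16, a zinc finger transcription factor, had bound values of 10.42 to 11.46 log2 (median 11.25) in sleep deprived animals and 8.09 to 8.69 (median 8.34) in sleep animals. Its unbound values were 9.89 to 10.42 (median 10.25) in sleep deprived animals and 9.28 to 9.86 (median 9.54) in sleep animals. The states did not overlap in either fraction, and the fraction difference was 2.05 ± 0.30 (SE; limma adjusted p = 0.000503). Plin4, a coat protein of lipid droplets, rose by 4.31 log2 in bound and 2.92 log2 in unbound arrays. Its within-animal differences were 1.53 to 2.90 (median 2.34) in sleep deprived animals and 0.31 to 1.40 (median 0.89) in sleep animals, again without overlap (1.40 ± 0.29 SE, limma adjusted p = 0.00635). The metallothionein Mt1, a metal-binding protein, had differences of 0.62 to 1.14 (median 0.97) in sleep deprived animals and of 0.02 to 0.47 (median 0.33) in sleep animals, which gave 0.66 ± 0.12 (SE; limma adjusted p = 0.00242). These were smaller steps than for Fkbp5, in a gene that is bright in both fractions.

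Other members of the list rose by similar amounts in both fractions. Sgk1, a kinase induced by glucocorticoids, rose by 1.32 log2 in bound and 1.11 log2 in unbound arrays, and its fraction difference was 0.21 ± 0.18 (SE; limma adjusted p = 0.544). Ddit4, an inhibitor of mTOR signalling, rose by 0.46 log2 in each fraction. Tsc22d3, another glucocorticoid-induced gene, was the called member with a negative value, with 0.45 log2 in bound and 1.03 log2 in unbound arrays. Its call ended without any of 9 animals (adjusted p up to 0.111). The positive calls of Sult1a1, Hif3a, Mt2 and Nfkbia also ended when single animals were left out, with adjusted p up to 0.0994: any of 9 for Sult1a1, any of 7 for Hif3a, any of 9 for Mt2, and sleep animal 3 or sleep deprived animal 6 or 8 for Nfkbia. When the animal block was dropped, so that the bound and unbound arrays of an animal were not paired, 4 members of the list had a positive call and Mt1 had an adjusted p of 0.0827. With the mean of all probe sets, Mt1 gave 0.34 (adjusted p = 0.0789) and Tsc22d3 −0.33.

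**Figure D2:**
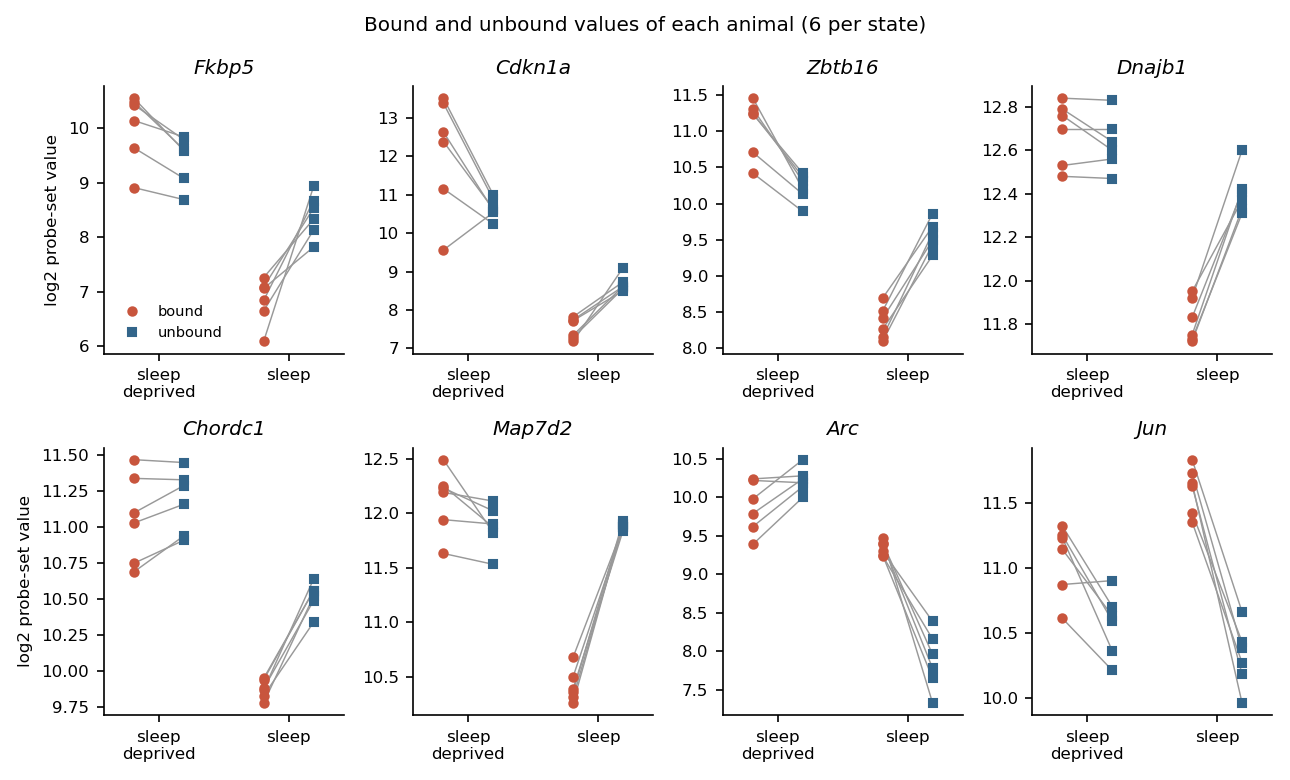
Bound (circles) and unbound (squares) log2 probe-set values of 8 genes in each of 6 sleep deprived (left) and 6 sleep animals (right), with a line joining the arrays of an animal; each panel has its own vertical scale. Lines slope down in sleep deprived and up in sleep animals for Fkbp5 and Zbtb16, and the order is the other way round for Arc, whose unbound values are the ones that moved most.

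Most chaperones of the heat shock response rose in each fraction as well, by smaller steps, and the list holds cytosolic and mitochondrial members. These proteins refold or hold unfolded proteins, and their genes are driven by heat shock factor. Of 25 measured members, 19 rose in bound and 15 in unbound arrays, where 7.53% and 4.65% of all tested genes rose, and none fell. The median change was 0.53 log2 in oligodendrocytes and 0.25 log2 in the remaining tissue. In the fraction difference, 11 members were called with a positive value and 1 with a negative value, against 3.03% and 3.21% of all tested genes. Values were positive for 21 of 25, and the median was 0.31 log2.

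Dnajb1, a J-domain partner of Hsp70, had bound values of 12.48 to 12.84 log2 (median 12.73) in sleep deprived animals and 11.72 to 11.95 (median 11.79) in sleep animals. Its unbound values were 12.47 to 12.83 (median 12.62) in sleep deprived animals and 12.31 to 12.60 (median 12.39) in sleep animals. Within animals the fractions were nearly level after sleep deprivation, at −0.04 to 0.16, whereas the bound value was 0.42 to 0.68 below the unbound value after sleep. This gave a fraction difference of 0.64 ± 0.09 (SE; limma adjusted p = 0.000425). With the mean of all probe sets of the gene it was 0.62, at an adjusted p of 0.0557.

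Chordc1, a co-chaperone of Hsp90, rose by 1.19 log2 in bound and 0.66 log2 in unbound arrays. Its differences were −0.26 to 0.02 in sleep deprived animals and −0.77 to −0.52 in sleep animals (0.52 ± 0.09 SE, limma adjusted p = 0.0022). Hsph1, a nucleotide exchange factor for Hsp70, gave 0.46 ± 0.09 (SE; limma adjusted p = 0.00439). Cacybp, which binds calcyclin and the ubiquitin ligase Siah1, gave 0.63 ± 0.11 (SE; limma adjusted p = 0.00197). None of these 3 genes had overlapping groups.

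The inducible Hsp70 gene Hspa1a varied widely between animals. Its bound values were 5.57 to 11.34 log2 (median 10.05) in sleep deprived animals and 5.19 to 7.37 (median 5.69) in sleep animals. Sleep deprived animal 11, which sex-linked genes also set apart, was the low one, inside the sleep range, and the other 5 lay at 8.19 or above. The resulting fraction difference was 2.57 ± 0.52 (SE; limma adjusted p = 0.00529). The neighbouring copy Hspa1b, which is nearly identical in sequence so that probes may not tell the pair apart, rose by 3.99 log2 in bound and 2.74 log2 in unbound arrays, and its fraction difference of 1.25 was not called (adjusted p = 0.405). Its within-animal differences spread further, from −1.29 to 3.86 in sleep deprived and from −1.59 to 3.1 in sleep animals. Dnajb5 was the only called member with a negative value (−0.65 ± 0.17 SE, limma adjusted p = 0.0254). It rose in the unbound fraction by 0.79 log2, against 0.15 log2 in the bound fraction, and leaving out sleep animal 1, sleep animal 6 or sleep deprived animal 11 gave an adjusted p between 0.0585 and 0.0593, and dropping the animal block 0.0515.

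Heat shock factor binds inverted repeats of GAA, searched here as GAANNTTCNNGAA on both strands of the window from 250 bases before to 50 bases after each RefSeq start. This motif was found in 0.603% of 32851 windows and in 4 of the 22 heat shock members with a window, namely Chordc1, Hspd1, Hspe1 and Hsph1. The glucocorticoid receptor motif AGAACANNNTGTNCT was found in 0.0396% of windows and in 1 of 20 members with a window, Sgk1. The sequences below are RefSeq, mouse build GRCm38.p6, given 5′ to 3′ on the strand of the gene, with the matched bases in capitals. They are shown because Hspe1 and Hspd1 share a single stretch between their starts and rose together, and because Hsph1 and Sgk1 hold the motif of their list. The Hspe1 stretch lies at chr1:55088039-55088096 on the plus strand, and its capitals hold 2 overlapping matches, which end 72 bases before the Hspe1 start and 127 bases before the Hspd1 start. The Hsph1 site lies at chr5:149636280-149636308 on the minus strand, just after the start, and the Sgk1 site at chr10:21993681-21993735 on the plus strand, upstream of it.
Hspe1: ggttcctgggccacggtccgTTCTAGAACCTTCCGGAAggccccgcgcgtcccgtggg
Hsph1: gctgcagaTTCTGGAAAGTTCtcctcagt
Sgk1: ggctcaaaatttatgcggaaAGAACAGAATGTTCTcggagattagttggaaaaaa

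Hspe1 and Hspd1 encode the mitochondrial chaperonins Hsp10 and Hsp60 and lie head to head around the stretch printed above. Hspe1 rose by 0.58 log2 in bound and 0.25 log2 in unbound arrays, with a fraction difference of 0.33 ± 0.07 (SE; limma adjusted p = 0.0115, and 0.101 without the animal block). Hspd1 rose by 0.42 log2 in bound and 0.17 log2 in unbound arrays, and its fraction difference of 0.25 ± 0.09 (SE) was not called (adjusted p = 0.104). Hsph1 and Sgk1, with 1 motif each, had fraction differences of 0.46 (called) and 0.21 log2 (not called). A match is a description of letters and says nothing of binding in these cells.

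**Figure D3:**
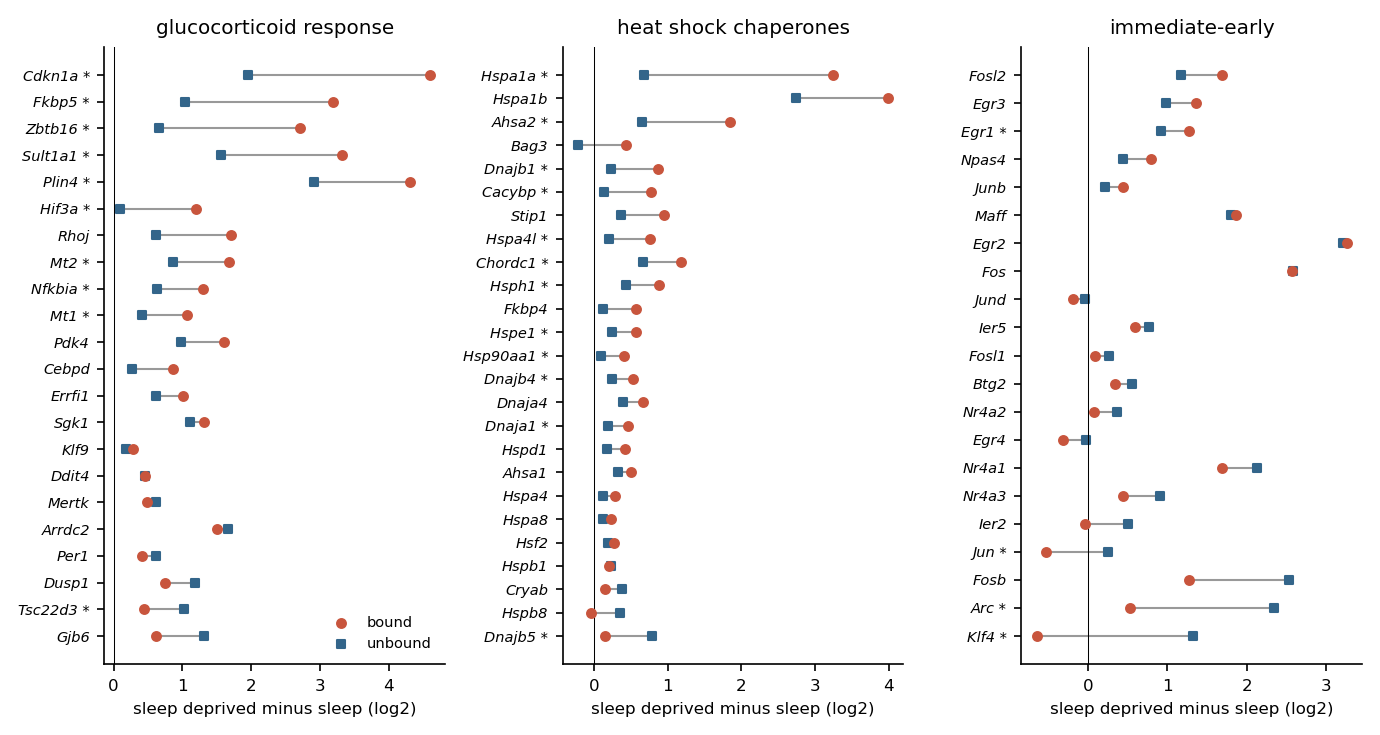
Mean change with sleep deprivation (sleep deprived minus sleep, log2) in the bound (circles) and unbound fraction (squares) for all tested members of 3 gene lists, ordered by the fraction difference; an asterisk marks a called fraction difference. Circles lie right of squares for most glucocorticoid and heat shock genes, while immediate-early genes show both orders.

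The animals did not respond evenly, and their order was nearly opposite for these 2 lists. For each animal, the value of every member was expressed relative to the sleep mean of that fraction, and the median over the list was taken. In bound arrays the glucocorticoid list gave 1.23, 0.42, 1.71, 1.40, 0.94 and 1.58 log2 for sleep deprived animals 6 to 11. The heat shock list gave 0.58, 0.89, 0.26, 0.61, 0.67 and 0.23 log2 for the same animals in bound arrays. Animals 7 and 10 were thus lowest for glucocorticoid genes and highest for chaperones, and animals 8 and 11 were the reverse. The unbound arrays gave the same picture, with glucocorticoid medians of 0.90, 0.30, 1.13, 1.01, 0.58 and 1.19 log2 and chaperone medians of 0.21, 0.38, 0.17, 0.29, 0.40 and 0.11 log2. Sleep animals stayed between −0.16 and 0.18 log2 in both lists and both fractions. These per-animal medians are a description, and no test was made on them.

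**Figure D4:**
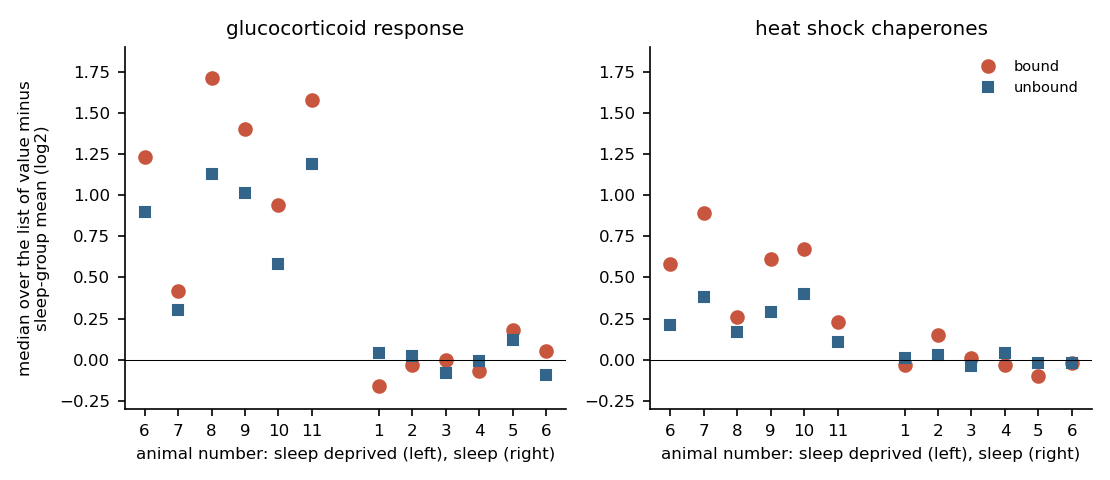
Median over the list of each animal's value minus the sleep mean (log2), for bound (circles) and unbound arrays (squares), with sleep deprived animals 6 to 11 left and sleep animals 1 to 6 right. Among sleep deprived animals, 7 and 10 are lowest in the glucocorticoid panel and highest in the heat shock panel.

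Immediate-early genes, the first transcripts induced by neuronal activity and other stimuli, rose in part in both fractions, some by similar and some by unequal amounts. Of 21 measured members, 11 rose and 2 fell in the bound fraction, where 7.53% and 6.87% of all tested genes did. In the unbound fraction 13 rose and none fell, against 4.65% and 3.17% of all tested genes. The fraction difference was called for 4, against 6.24% of all tested genes, with 3 negative values, and the list median was −0.17 log2. Arc, a cytoskeleton-associated protein of active synapses, had unbound values of 10.00 to 10.49 log2 (median 10.21) in sleep deprived animals and 7.33 to 8.39 (median 7.87) in sleep animals. Its bound values were 9.39 to 10.24 (median 9.88) in sleep deprived animals and 9.24 to 9.47 (median 9.35) in sleep animals. The unbound ranges of the states were far apart, whereas the bound ranges overlapped. This made a fraction difference of −1.82 ± 0.21 (SE; limma adjusted p = 4.71e-05), the smallest p of the list.

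Jun, a subunit of AP-1, went down in oligodendrocytes. Its bound values were 10.61 to 11.32 log2 (median 11.19) in sleep deprived animals and 11.35 to 11.83 (median 11.64) in sleep animals, without overlap, while the unbound values of 10.21 to 10.90 and 9.96 to 10.66 overlapped. Between the fractions the difference was −0.78 ± 0.15 (SE; limma adjusted p = 0.0036). The transcription factor Klf4 gave −1.97 ± 0.37 (SE; limma adjusted p = 0.00291), from 1.33 log2 in unbound and −0.64 log2 in bound arrays, and its bound values of 3.56 to 5.64 log2 over both states are near the low end of the arrays. Fos and Egr2, by contrast, rose by similar amounts in both fractions. Fos changed by 2.57 log2 in bound and 2.58 log2 in unbound arrays (fraction difference −0.01 ± 0.34 SE, adjusted p = 0.995), and Egr2 by 3.25 and 3.21 log2 (0.04 ± 0.50 SE, adjusted p = 0.976). Fos was the brighter in unbound arrays in every animal, by 1.62 to 3.54 log2 in sleep deprived and by 1.57 to 2.79 log2 in sleep animals. The fourth called member, Egr1, had 0.35 log2, and its call ended without any of 9 animals (adjusted p up to 0.0852). Among 16 synaptic activity effectors, 6 rose in bound and 9 in unbound arrays, where 7.53% and 4.65% of all tested genes rose. Of the 16, 2 had a called negative fraction difference, against 3.21% of all tested genes: Arc and Rheb (−0.41 ± 0.10 SE, limma adjusted p = 0.0195), an activator of mTOR.

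Outside these lists, several genes with small p-values rose in oligodendrocytes with no called change elsewhere. Map7d2, a microtubule-associated protein of the MAP7 family, had the smallest p of all genes. Its bound values were 11.63 to 12.49 log2 (median 12.21) in sleep deprived animals and 10.26 to 10.68 (median 10.38) in sleep animals. Its unbound values were 11.53 to 12.11 (median 11.88) in sleep deprived animals and 11.84 to 11.93 (median 11.88) in sleep animals. The bound fraction moved by 1.71 log2 and the unbound fraction by −0.01 log2, so that the fraction difference of 1.71 ± 0.13 (SE; limma adjusted p = 6.23e-07) was the bound change itself.

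Cab39l, a scaffold of the LKB1 kinase complex, moved in the same manner. Its differences were 1.06 to 2.34 log2 (median 1.95) in sleep deprived animals and −0.36 to 0.44 (median −0.03) in sleep animals (1.83 ± 0.19 SE, limma adjusted p = 2.09e-05). Bcl2l1, the anti-apoptotic Bcl-xL, had bound values of 11.09 to 11.78 log2 (median 11.54) in sleep deprived animals and 10.12 to 10.55 (median 10.28) in sleep animals, and an unbound change of −0.00 log2. Its fraction difference was 1.20 ± 0.14 (SE; limma adjusted p = 4.12e-05). For both genes the 2 other tested probe sets had the same sign, but with the mean of all probe sets the value was 0.88 for Cab39l and 0.45 for Bcl2l1. Snx22, a sorting nexin, gave 1.69 ± 0.22 (SE; limma adjusted p = 0.000113).

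Other positive values, that of Zfand4 aside, combined a bound rise with a weaker unbound rise. Scrg1, a small secreted protein named for its rise in scrapie, rose by 3.33 log2 in bound and 0.87 log2 in unbound arrays (2.45 ± 0.30 SE, limma adjusted p = 5.95e-05). Bcat1, the cytosolic branched-chain aminotransferase, had differences of 0.42 to 1.05 log2 (median 0.80) in sleep deprived animals and of −0.70 to −0.36 (median −0.52) in sleep animals (1.28 ± 0.14 SE, limma adjusted p = 3.9e-05). Rcan2, a regulator of calcineurin, moved least but most evenly: its differences spanned 0.54 to 0.74 log2 in sleep deprived animals and 0.19 to 0.28 in sleep animals (0.42 ± 0.05 SE, limma adjusted p = 7.84e-05). Pla2g3, a secreted phospholipase, and Zfand4, an AN1-type zinc finger gene, had larger but more scattered values, at 2.29 ± 0.42 and 3.07 ± 0.55 (SE, limma adjusted p = 0.00275 and 0.00208). Zfand4 did not rise in unbound arrays, with medians of 6.12 log2 in sleep deprived and 6.67 in sleep animals.

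In 49 genes the fractions moved in opposite directions. Rasl11b, a small GTPase of the Ras family, is a bright example, with bound values of 10.56 to 11.23 log2 (median 10.82) in sleep deprived animals against 10.04 to 10.39 (median 10.23) in sleep animals. Its unbound values were 10.17 to 10.70 (median 10.40) in sleep deprived animals and 10.65 to 10.90 (median 10.76) in sleep animals. The within-animal difference was positive in all 6 sleep deprived animals and negative in all 6 sleep animals (0.96 ± 0.10 SE, limma adjusted p = 2.78e-05). Zfp60, a zinc finger gene, reversed in the same sense, with 1.39 log2 in bound and −0.87 log2 in unbound arrays (2.27 ± 0.22 SE, limma adjusted p = 7.96e-06). Tnfsf10, the death ligand TRAIL, changed by 0.37 log2 in bound and −1.17 log2 in unbound arrays, at unbound levels of 3.44 to 3.86 log2 in sleep deprived animals and 4.49 to 4.94 in sleep animals, which are dim. With the mean of its probe sets its fraction difference was 0.85, against 1.55.

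Several of the largest negative fraction differences came wholly or mostly from a fall in oligodendrocytes. Nt5dc1, a member of the cytosolic 5′-nucleotidase family, had bound values of 2.84 to 4.23 log2 (median 3.37) in sleep deprived animals and 5.32 to 5.90 (median 5.66) in sleep animals, while the unbound change was −0.05 log2. Its fraction difference was −2.20 ± 0.26 (SE; limma adjusted p = 5.06e-05). The states did not overlap in the bound arrays. Tfpi, the tissue factor pathway inhibitor, gave −3.23 ± 0.55 (SE; limma adjusted p = 0.00165), Btc, the growth factor betacellulin, −2.84 ± 0.39 (SE; limma adjusted p = 0.00021), and Slc13a5, a citrate transporter, −2.10 ± 0.32 (SE; limma adjusted p = 0.000642). Part of the last values was a rise in unbound arrays, of 0.99 log2 for Tfpi, 0.67 for Btc and 0.399 for Slc13a5. None of these unbound rises was called. The unbound values of Tfpi in sleep animals had a median of 4.68 log2, below the unbound filter. In bound arrays of sleep deprived animals Tfpi lay between 1.89 and 2.65 log2 and Btc between 3.33 and 4.52 log2. These values, and those of Nt5dc1, lay below the bound filter of 4.471 in all animals but 1 of Btc, so that the size of the fall is bounded by the dim end of the scale. Nt5dc1 and Btc, dim in unbound arrays too, passed the filter through bound arrays, where sleep animals were highest. With the mean of their probe sets the values were −1.28 for Tfpi, −1.33 for Btc and −1.12 for Slc13a5.

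Other negative values came wholly or mostly from a rise in the unbound fraction. Dmkn, a secreted epithelial protein, had unbound values of 7.03 to 7.49 log2 (median 7.28) in sleep deprived animals and 5.19 to 6.15 (median 5.50) in sleep animals, and bound values of 3.26 to 3.91 log2 over both states. Prr5, a component of the mTOR complex with Rictor, had unbound values of 6.53 to 8.12 log2 (median 7.61) in sleep deprived animals and 5.42 to 5.81 (median 5.59) in sleep animals. The fraction differences were −1.79 ± 0.22 for Dmkn and −1.78 ± 0.27 for Prr5 (SE; limma adjusted p = 7.77e-05 and 0.000628). Pfkfb3, which makes the activator of the glycolytic enzyme phosphofructokinase, rose by 0.83 log2 in the unbound fraction. Its bound median was lower in sleep deprived than in sleep animals, at 8.44 against 8.85 log2. It gave −1.19 ± 0.26 (SE, limma adjusted p = 0.00813), the 1 called gene among 23 of glycolysis and lactate transport. In the opposite sense, Srp54b, a subunit of the signal recognition particle, fell in the unbound fraction by 1.89 log2 (2.10 ± 0.33 SE, limma adjusted p = 0.000685). Its unbound values were dim, at 3.00 to 3.35 log2 in sleep deprived and 3.95 to 6.36 in sleep animals. The former lay below the unbound filter of 5.183, so the size of the fall is bounded by the dim end of the scale. Near-identical gene copies of Srp54b may share its probes.

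The splicing factor Srsf5 fell in both fractions and further in oligodendrocytes. The cold-inducible list of RNA-binding proteins, to which it belongs, had 3 measured members, and all 3 fell in the bound fraction, where 6.87% of all tested genes fell. Of these 3, 2 fell in the unbound fraction, where 3.17% did. Srsf5 had bound values of 8.83 to 11.10 log2 (median 9.53) in sleep deprived animals and 11.22 to 11.58 (median 11.48) in sleep animals. Its unbound values were 9.35 to 10.74 (median 10.06) in sleep deprived animals and 10.93 to 11.08 (median 10.98) in sleep animals. No sleep deprived animal reached the sleep range in either fraction, and animal 11 came nearest to it. The fraction difference was −0.79 ± 0.14 (SE; limma adjusted p = 0.00242), and without the pairing of arrays by animal it had an adjusted p of 0.164. Cirbp, the cold-inducible RNA-binding protein, fell by 1.63 log2 in bound and 1.00 log2 in unbound arrays, but its fraction difference of −0.63 ± 0.19 (SE) was not called (adjusted p = 0.0542).

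Core clock genes had 1 called member of 19, Per3 (−1.21 ± 0.31 SE, limma adjusted p = 0.0232), and 15 of 19 values were negative, with a median of −0.21 log2. Like the list counts that follow, this count is to be read against the 6.24% called over all tested genes. The Per3 call ended without sleep animal 5 or sleep deprived animal 8, 10 or 11 (adjusted p 0.0502 to 0.0565), and with the mean of its probe sets the value was −0.09. Per2 and Arntl rose in the unbound fraction by 1.31 and 0.85 log2 and had fraction differences of −0.99 each (adjusted p = 0.0724 and 0.0767). Genes of cholesterol synthesis and uptake had 19 of 21 negative values with a median of −0.16 log2, and 2 were called, Dhcr7 at −0.74 and Cyp51 at −0.60 (adjusted p = 0.03 and 0.0322). Both calls ended when single animals were left out, any of 7 for Dhcr7 and any of 8 for Cyp51 (adjusted p up to 0.0721). Pcyt2, an enzyme of phosphatidylethanolamine synthesis, kept its call under every alternative run (−0.94 ± 0.20 SE, limma adjusted p = 0.00875), with bound values of 8.99 to 9.30 log2 in sleep deprived animals and 9.51 to 10.04 in sleep animals. Pcyt2 and Pla2g3, the latter tested only because of its bound arrays, were the called members among 23 phospholipid genes.

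Changes of myelin genes differed little between the fractions. Of 22 measured members, 1 was called, Mobp at −0.31 (adjusted p = 0.043), whose call ended without any of 9 animals (adjusted p up to 0.0922) and which gave −0.19 with the mean of its probe sets, and the list median was 0.01 log2. Opalin, a membrane protein of mature oligodendrocytes, fell by 0.88 log2 in bound and 0.70 log2 in unbound arrays, so that the fraction difference was −0.17 ± 0.16 (SE; adjusted p = 0.583). In the endoplasmic reticulum folding list limma called 0 of 23 (4 at an unadjusted p below 0.05). In that list 10 rose in bound and 9 in unbound arrays, where 7.53% and 4.65% of all tested genes rose. Its best known member, Hspa5 (BiP), rose by 0.73 log2 in bound and 0.76 log2 in unbound arrays. Cytosolic ribosomal proteins had 3 called of 18, all negative, where 3.21% of all tested genes had a negative call. Under the alternatives they had between 1 and 4 negative calls. Rplp0, of the ribosomal stalk, lost its call without any of 10 animals (−0.34, adjusted p up to 0.101), and Rps27 kept its call under every alternative run (−0.73 ± 0.16 SE, limma adjusted p = 0.00771). The Rps27 probe set was dim, however, with bound values of 4.98 to 5.45 log2 in sleep deprived and 5.75 to 6.17 in sleep animals. Rpl10a, the endogenous form of the tagged protein, gave −0.42 ± 0.11 (SE; limma adjusted p = 0.0234), which ended without sleep animal 3 or 4 or sleep deprived animal 7 or 10 (adjusted p 0.0506 to 0.0555).

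Smaller or negative results came from the other lists, to be read against the 6.24% called over all tested genes. Limma called 0 of 28 genes of oxidative phosphorylation (4 at an unadjusted p below 0.05), 0 of 27 of the proteasome (4), 0 of 25 of fatty acid and sphingolipid synthesis (2), 0 of 18 oligodendrocyte lineage regulators (2), 0 of 16 of paranode and axon-glia adhesion (3), 0 of 15 MAP kinase phosphatases and Sprouty genes (2) and 0 of 8 subunits of the chaperonin TRiC (3). Potassium channels had 3 negative calls of 19, among them Kcnq3, a subunit of the M-current channel (−0.71 ± 0.16 SE, limma adjusted p = 0.0128; 0.0516 with the mean of its probe sets). Between 1 and 4 potassium channels had a negative call under the alternatives, and Kcne4 lost its call without any of 6 animals. Antigen presentation and interferon genes had 2 calls of 16, with opposite signs. Psmb9, an immunoproteasome subunit, fell by 0.82 log2 in unbound arrays (1.07 ± 0.24 SE, limma adjusted p = 0.01). The interferon-induced Ifit1 gave −2.21 ± 0.65 (SE; limma adjusted p = 0.0468), a call that ended without any of 9 animals (adjusted p up to 0.0943). Iron handling had 1 call of 9, Steap3, a ferrireductase that rose by 1.27 log2 in unbound arrays (−1.69 ± 0.36 SE, limma adjusted p = 0.008; −0.59 with the mean of its probe sets). Apoptosis regulators had 2 calls of 17, and amino acid supply by ATF4 targets (25 genes), tubulin and microtubule genes (22), glutamate and GABA receptors (18) and cell cycle brakes (14) had 1 each. Of these calls, Sars ended without any of 11 animals, Tubb2a without any of 9, Gria4 without any of 4 and the apoptosis gene Apaf1 without any of 9 (adjusted p up to 0.105).

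Markers of other cell types held 5 called genes, in both directions, a share below the 6.24% called over all tested genes. Mural cell markers had 2 calls of 6 with opposite signs. Tagln, an actin-binding protein of smooth muscle, gave −1.28 ± 0.23 and Myh11, the smooth muscle myosin heavy chain, 2.88 ± 0.79 (SE; limma adjusted p = 0.0022 and 0.0338). Neuronal markers had 1 call of 16, the vesicular glutamate transporter Slc17a7 (−1.54 ± 0.39 SE, limma adjusted p = 0.0214), oligodendrocyte precursor markers 1 of 14, Lhfpl3 at −1.07, and striatal neuron markers 1 of 7, the dopamine receptor Drd2 at 1.02. The call of Tagln did not end without any 1 animal, whereas that of Myh11 ended without any of 6 animals, Lhfpl3 without any of 7, Drd2 without any of 8 and Slc17a7 without sleep animal 4 (adjusted p up to 0.101). Limma called 0 of 15 astrocyte markers (4 at an unadjusted p below 0.05), 0 of 11 microglial (1), 0 of 4 endothelial (0), 0 of 7 choroid plexus and ependymal (2), 0 of 9 hypothalamic (2) and 0 of 3 red blood cell markers (0).

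Spontaneous waking gave a second contrast with the same sleep animals. The values are set side by side in the plot of waking and sleep deprivation. Sleep deprived animals were also tested directly against waking animals (sleep deprived minus waking animals, same fit). Waking animals were taken at night and sleep deprived animals after part of the light phase. Enforced wake and time of day therefore differ together in the direct test, and the part of each was not tested. In that test 594 genes (4.27%) were called, 152 of them (1.09%) with a more positive value after sleep deprivation. The median over all genes was −0.10 log2. Array means moved with this, at 6.41 log2 in unbound arrays of sleep deprived against 6.34 in those of waking animals, and at 5.91 against 5.93 in bound arrays. With each animal's differences centred on their median, a setting chosen after seeing the data, 443 genes were called, 214 of them with a more positive value, and with quantile normalization within each fraction 439 were, 225 of them positive, so the excess of negative calls was absent under both. The calls of the genes named below and the counts of the lists were the same under both settings. Chaperones had similar values in both states. In waking, 13 of 25 had a called positive fraction difference, where 3.94% of all tested genes did, and limma called 0 of 25 in the test of sleep deprivation against waking (2 at an unadjusted p below 0.05). Dnajb1 had 0.64 ± 0.09 in sleep deprivation and 0.69 in waking, Chordc1 0.52 and 0.75, and Hsph1 0.46 and 0.61.

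Some glucocorticoid genes differed between sleep deprived and waking animals. In the test of sleep deprivation against waking, 4 of 22 had a more positive value in sleep deprivation, namely Fkbp5, Cdkn1a, Mt1 and Mt2, and 1, Gjb6, a more negative one. Fkbp5 gave 2.16 in sleep deprivation and 0.73 in waking (difference 1.43 ± 0.30 SE, limma adjusted p = 0.00992). Cdkn1a gave 2.63 and 0.52 (difference 2.12 ± 0.45 SE, limma adjusted p = 0.011). Plin4 had the other order, at 1.40 in sleep deprivation and 2.37 in waking (limma adjusted p = 0.0581 for the difference). Among the genes outside these lists, Map7d2 gave 1.71 in sleep deprivation and 0.77 in waking, a difference past the threshold (limma adjusted p = 0.00082), and so did Bcl2l1 (1.20 and 0.42), Cab39l (1.83 and 0.80) and Bcat1 (1.28 and 0.62). Dmkn and Prr5 had −1.79 and −1.78 in sleep deprivation and −0.09 and −0.11 in waking, and both also passed that test (limma adjusted p = 0.0005 and 0.0026). Arc, at −1.82 and −1.52, did not (limma adjusted p = 0.45).

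**Figure D5:**
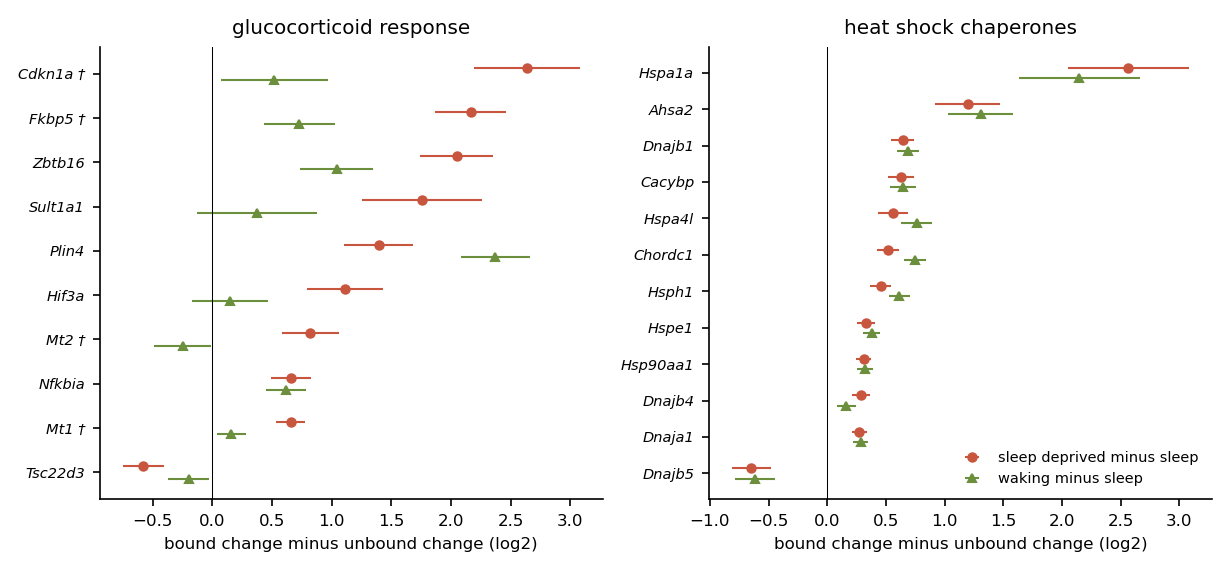
Fraction difference (bound change minus unbound change, log2, with the standard error) of called glucocorticoid and heat shock genes in sleep deprivation (circles) and waking (triangles), each against the same 6 sleep animals. A dagger marks genes whose values differed between sleep deprivation and waking at an adjusted p below 0.05: Cdkn1a, Fkbp5, Mt2 and Mt1.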

How the data were processed

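The authors deposited log2 values per probe set, made with RMA (no version stated) per the submitters' processing notes, and nothing further was done to normalize them. Of 45101 probe sets, 34945 named 1 gene. The probe set with the highest mean stood for a gene, and genes below the 40th percentile in both fractions (4.471 log2 bound, 5.183 log2 unbound) were not tested.

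The package limma 3.58.1 (R 4.3.3, intensity trend on) was applied to the bound minus unbound differences of all 18 animals (6 per state), with state means as terms; the changes within a fraction came from its 18 arrays. Calls needed a p below 0.05 once adjusted by Benjamini-Hochberg over all genes. Errors are limma standard errors. The pairing of arrays comes from the design, since both fractions of an animal carry its number. After removal of group means, arrays of 1 animal correlated at −0.0032 to 0.0848 (mean 0.0458; other animals −0.00904), and for 8 of 18 animals the best match was their own.

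The members and the 38 gene lists (595 genes tested) were chosen with earlier results of these data known. Named genes were the 12 largest values per direction, 5 per pattern of change, up to 4 called members per list (for a list with none, its smallest p), Cnp and Rpl10a, without uncharacterised symbols; further list members were picked after their values were seen. Alternatives were other normalizations, filters, probe-set rules and variance models, the fit without the animal block, and leaving out animals. The scripts were tested on simulated data. Figures used Python 3.11.15 and matplotlib 3.10.9.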

Additional observations from a re-analysis of the deposited data

Results flagged for a closer look

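Single animals stood apart from the other 5 of their state in the bound minus unbound difference of several genes named above, by Dixon's ratio of gap to range. Such a flag arises by chance in about 1 group in 20, so some of these are to be counted on. Among sleep deprived animals, animal 7 was low for Nfkbia (0.49 log2) and for Cirbp (−0.87 log2). Among sleep animals, animal 1 was low for Btc (1.55 log2) and Rpl10a (−0.77 log2) and high for Paqr8 (0.58 log2), animal 2 was high for Hspd1 (0.22 log2), animal 3 was high for Steap3 (1.75 log2) and low for Sars (−0.25 log2), animal 4 was high for Klf4 (1.52 log2), animal 5 for Mt2 (−0.92 log2) and Ifit1 (2.54 log2), and animal 6 for Egr1 (−2.0 log2). The sleep deprivation change itself differed between bound and unbound arrays in 869 genes, as reported. Among 3346 probe sets outside the report that name no gene or several, 353 were called in the same way, against 6.24% of the tested genes. Of these, 184 had a positive and 169 a negative value.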

How the results depend on the processing

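The count of 869 genes lay between 668 and 1115 under other normalizations, the stricter filter, the mean of probe sets, no intensity trend and the 12 sleep deprived and sleep pairs alone, and between 693 and 767 without 1 animal. With no filter on dim probe sets it was 2253 of 18193 genes, and with every probe set tested on its own 1499 of 25422. With no replicate block, 943 genes were called, 769 of them among the 869. Without the 3 animals set apart by sex-linked genes there were 705. Of the called genes named in the text, 45 kept their call under every alternative run, 23 lost it without 1 animal and 6 under another setting only. Lrmda, named by the rule, turned to −0.33 (adjusted p = 0.479) with the mean of its probe sets; the cause was not tested. The number of glucocorticoid genes with a positive call lay between 4 and 9, and of heat shock genes between 7 and 12. The counts of calls within a fraction and between sleep deprivation and waking stayed within 1.5 times under the alternatives run. The share of positive calls between sleep deprivation and waking was 25.6%, against 51.3% with quantile normalization within each fraction and 48.3% with centred differences. The share of called genes was highest among the dimmest genes, at 10.3%, where signal lies closest to background.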

Other observations

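Some of the brightest genes, which belong to none of the lists, also had large fraction differences; these were chosen after their values were seen. Of the 2785 brightest genes, from 10.05 log2 on average, 166 were called, 86 with a positive and 80 with a negative value. Rnf144a, a ubiquitin ligase, gave 1.81 ± 0.32 (SE; limma adjusted p = 0.00208), and 2 of its 2 other probe sets had the same sign. Fam107a, an actin-associated protein, rose by 2.36 log2 in bound and 0.75 log2 in unbound arrays (1.62 ± 0.30 SE, limma adjusted p = 0.00289). Phactr3, a regulator of actin and protein phosphatase 1, averaged 1.05 ± 0.55 log2 (SD, n = 6) bound minus unbound in sleep deprived animals and −0.27 ± 0.07 in sleep animals, without overlap. Hip1, an endocytic adaptor, gave 1.11 ± 0.16 and the membrane progesterone receptor Paqr8 1.02 ± 0.17 (SE; limma adjusted p = 0.000307 and 0.00154). With the mean of its probe sets Hip1 gave 0.61.

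Among the negative values, Tmod1, which caps actin filaments, averaged 1.09 ± 0.21 log2 (SD, n = 6) bound minus unbound in sleep deprived animals and 1.94 ± 0.14 in sleep animals, a fraction difference of −0.85 ± 0.12 (SE; limma adjusted p = 0.000243). Acsl3, which activates fatty acids, gave −0.79 ± 0.16 and Tmem65 −0.82 ± 0.15 (SE; limma adjusted p = 0.00448 and 0.00208). Neither pair of groups overlapped.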
